A study of Drosophila melanogaster with 6 samples.

Results

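The 10 nicotinic acetylcholine receptor subunit genes of Drosophila melanogaster were followed through peak lists of methylated DNA from fly heads. The members were taken by name: nAChRalpha1 to nAChRalpha7 and nAChRbeta1 to nAChRbeta3, 10 of 17807 RefSeq genes on the main chromosomes (Release 6, dm6). Every listed peak that overlapped a gene's RefSeq span or 1 kb on either side was kept. This gave 101 peaks, 56 in lead and 45 in control libraries. A total of 8 genes had a peak in at least 1 library, and nAChRalpha2 and nAChRbeta3 had none.

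The study compared adult heads of wild-type flies in a lead group (treatment label F3-800um, 3 libraries) and a control group (F3-0um, 3 libraries). All flies were labelled WT and all libraries carried the label F3. In MeDIP-seq, an antibody against 5-methylcytosine recovers sheared genomic DNA, and the authors listed peaks for each library separately. The labels do not say whether replicates came from separate flies or extractions. Replicate spread, and p-values based on it, may therefore be technical. The label of the tissue cannot be checked in genomic DNA.

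Nicotinic receptors are acetylcholine-gated cation channels built from several subunits, and acetylcholine is the main fast excitatory transmitter of the insect brain. Alpha subunits carry a pair of neighbouring cysteines in the ligand-binding site, and beta subunits lack it. These receptors are the targets of neonicotinoid and spinosyn insecticides. Cytosine methylation is scarce in flies, which lack the classical maintenance and de novo DNA methyltransferases, and a MeDIP peak by itself does not show that a cytosine was methylated.

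Lists held 3522, 1379 and 2536 peaks in lead replicates 1, 2 and 3, and 1746, 2414 and 2157 in control replicates 1, 2 and 3. Sequencing depth is unknown here, so a missing peak does not show that signal was absent. Lead replicate 1 stood apart: it had the longest list and 32.1% of its peaks on X, against 21.6% to 24.5% in the other 5 libraries.

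**Figure D1:**
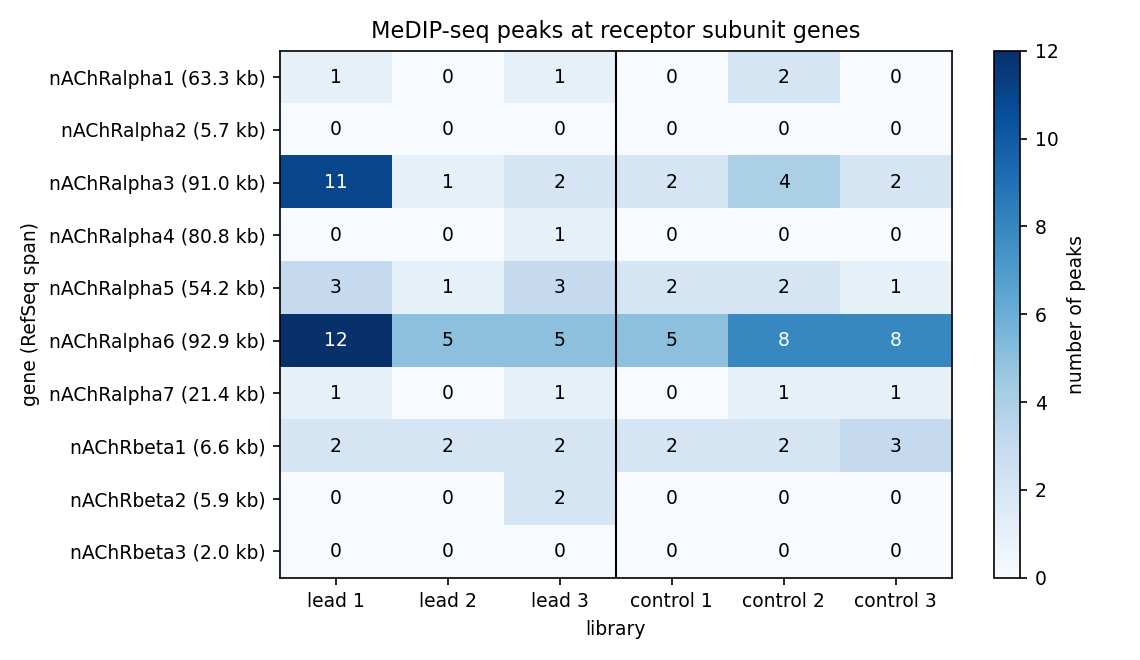
Number of peaks at each subunit gene (rows, RefSeq span in kb) in each library (columns, lead libraries left of the line and control libraries right of it). nAChRalpha3, nAChRalpha5, nAChRalpha6 and nAChRbeta1 are marked in every library. The 11 and 12 peaks of lead replicate 1 at nAChRalpha3 and nAChRalpha6 are the highest values.

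Peaks were concentrated in a few of the genes. nAChRalpha6 held 43 of the 101 peaks, nAChRalpha3 held 22, nAChRbeta1 held 13 and nAChRalpha5 held 12. These 4 genes had a peak in all 6 libraries. nAChRalpha1 and nAChRalpha7 had 4 peaks each, nAChRbeta2 had 2 and nAChRalpha4 had 1. Of all genes, 12.2% had a peak in at least 1 library and 3.69% in all 6.

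Gene length matters for such counts, since a longer window meets more peaks. All 5 members with a span of 50 kb or more had a peak, where 84.6% of the 325 genes of that length did, and 3 of them had one in all 6 libraries, where 47.7% did. Of the 4 members under 10 kb, 2 had a peak and 1 had peaks in all 6 libraries. Among all genes under 10 kb these shares were 6.93% and 1.57%. That class has no lower limit of length, so it is not closely matched to these members. Of the 2 with a peak, nAChRbeta2 had its peaks in lead replicate 3 alone. The 1 member between those lengths, nAChRalpha7, had a peak, as did 47.0% of the genes in its class. Density is therefore given per length. Over all 10 windows (443.8 kb) there were 3.79 peaks per 100 kb and library, against 1.70 over all gene windows joined. The members were uneven. nAChRbeta1 had 25.1 and nAChRalpha6 had 7.55, and nAChRalpha3, nAChRalpha5, nAChRalpha7 and nAChRbeta2 had 2.85 to 4.23. nAChRalpha1 and nAChRalpha4 lay below 1.70, and nAChRalpha2 and nAChRbeta3 had no peak. On X the gene windows had 2.56, against 3.94 at nAChRalpha3 and 2.85 at nAChRalpha7.

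Merging peaks that overlapped by at least 1 bp gave 39 regions at the members. All 39 lay in or across the gene spans and none lay wholly in the 1 kb flanks. Of the 39, 4 came within 1 kb of either end of the gene. The spans made up 423.8 of the 443.8 kb of windows, and the same counts were not made over all regions. A peak was present in all 6 libraries at 6 regions, 15.4% of the 39, against 19.6% of the 4538 regions of the genome. A single library held 19 of the 39, 48.7%, against 35.5% of all regions. Without lead replicate 1 it was 11 of 28, 39.3%, against 35.1% of all regions. Lead replicate 1 alone accounted for 11 of these 19, out of its 30 member regions, where 25.0% of all its regions were in no other library. Lead replicate 2 had 0 of 9 (2.60% of all its regions) and lead replicate 3 had 5 of 17 (10.2%). Control replicates 1, 2 and 3 had 1 of 11 (4.93%), 1 of 19 (10.0%) and 1 of 15 (6.23%).

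nAChRalpha6 encodes the subunit that spinosyns act on and is a gene of many alternative transcripts. It lies on 2L at 9793317 to 9886250, a span of 92.9 kb. It had 12, 5 and 5 peaks in lead replicates 1, 2 and 3, and 5, 8 and 8 peaks in control replicates 1, 2 and 3. Lead replicate 1 was highest, and the 2 groups overlapped. Among the 1379 highest scores of each list the gene had 2, 5 and 2 peaks in lead and 5, 4 and 4 in control libraries, with lead replicate 1 among the lowest. The mean was 7.55 peaks per 100 kb and library, against 1.19 over the gene windows of 2L. Of all 17807 genes, 20 including nAChRalpha6 had 43 or more peaks over the 6 lists, all of them with spans of 50 kb or more.

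The 43 peaks of nAChRalpha6 formed 13 regions in separate stretches near each end of the gene. The first 7 regions, with 29 peaks, lay within 17.6 kb at the lower-coordinate end, from 9796543 to 9814161. The other 6, with 14 peaks, lay within 21.3 kb at the higher-coordinate end. Between them no library had a peak over 47.1 kb (9814162 to 9861264), 50.7% of the span. The gene table used gives no strand or exons, so the ends cannot be called first or last exons here.

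A peak was found in all 6 libraries at 3 of these regions. The strongest, at 9882081 to 9882556, lay 3.69 kb inside the higher-coordinate end. Its score percentile, the peak's standing among all scores of its own list with 100 for the highest, was 92.8, 88 and 89.8 in lead replicates 1, 2 and 3, and 92.8, 86.8 and 93.3 in control replicates 1, 2 and 3. The values of both groups were interleaved near the top of each list. Peak starts at this region differed by at most 42 bp and ends by at most 63 bp, and 371 bp were common to the 6 peaks. By score per bp its median percentile was 81.9 in place of 91.3.

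The region at 9801267 to 9801923 was more variable in rank. Its percentiles were 92.1, 44.3 and 89.1 in lead replicates 1, 2 and 3, and 69.0, 85.7 and 42.7 in control replicates 1, 2 and 3. Lead replicate 2 and control replicate 3 placed it below the middle of the list and the others well above. Its peaks were wide, 631, 484 and 644 bp in lead and 495, 500 and 487 bp in control libraries, and ranked by score per bp its median percentile was 34.3 in place of 77.3. The third, at 9808003 to 9808349, ranked in the middle, at 51.1, 36.8 and 23.0 in lead and 38.1, 44.4 and 46.4 in control libraries, and by score per bp its median was 51.6 in place of 41.3.

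At 9796543 to 9797031 peaks were present in 3 lead and 2 control libraries, missing from control replicate 1, at low percentiles of 17.8 to 30.5. At 9813835 to 9814161 the 3 control libraries had a peak, with percentiles of 62.9, 52.7 and 65.7, and lead replicate 1 had one at 51.1, while lead replicates 2 and 3 had none. Without lead replicate 1 this was the 1 member region with a peak in every control and no lead library. Under the same omission such regions made up 1.19% of all 3686, and 3 against 0 libraries cannot pass a test (smallest exact p 0.1).

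The remaining 8 regions of nAChRalpha6 held peaks below the middle of their lists. At 9803678 to 9804270 lead replicates 1 and 2 and control replicates 2 and 3 had a peak, at percentiles of 2.1 to 35.6. At 9805349 to 9805946 the peaks of lead replicate 1 and control replicates 2 and 3 had percentiles of 0.950 to 6.89, close to the weakest entries of their lists. At 9877320 to 9878146 there were peaks in 2 lead and 2 control libraries, but they were chained together: no base was common to all 4. Lead replicate 1 alone had peaks at 9861265 to 9861511, 9870228 to 9870459, 9871173 to 9871381 and 9876701 to 9876909, at percentiles of 6.89 to 38. Control replicate 1 alone had one at 9800508 to 9800749, at 21.1.

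**Figure D2:**
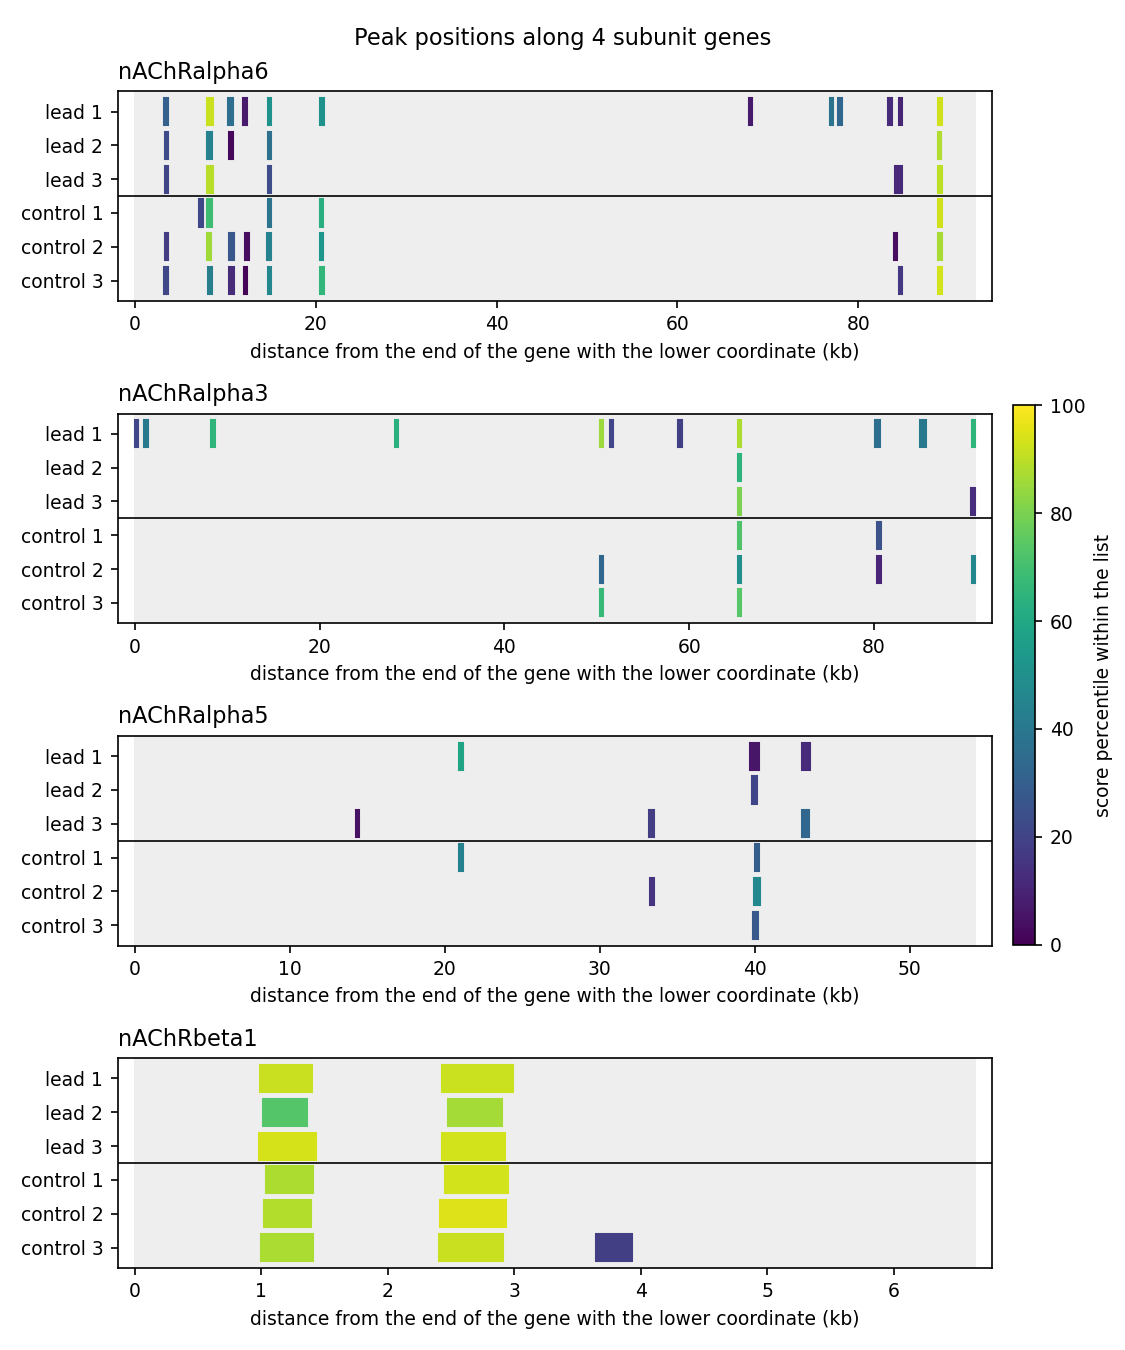
Positions of the peaks along nAChRalpha6, nAChRalpha3, nAChRalpha5 and nAChRbeta1 (grey, RefSeq span; x axis, distance in kb from the lower-coordinate end), with 1 row per library, lead above control, coloured by score percentile within the list. Narrow peaks are drawn slightly wider than scale so that they can be seen. The empty middle of nAChRalpha6 spans 47.1 kb, and 7 positions of nAChRalpha3 hold a peak in lead replicate 1 alone.

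nAChRbeta1, a widely used beta subunit also known as ard, had the densest marking for its length. It lies on 3L at 4429349 to 4435993, a span of 6.64 kb. It had 2, 2 and 2 peaks in lead replicates 1, 2 and 3, and 2, 2 and 3 in control replicates 1, 2 and 3. Apart from the extra peak of control replicate 3, the libraries were equal. Peaks covered a mean of 10.9% of its window. Of the 15766 genes under 10 kb, 7 including nAChRbeta1 had 13 or more peaks over the 6 lists, and 9 had 2 or more regions with a peak in all libraries.

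Both shared regions of nAChRbeta1 ranked in the upper part of each list by score, with median percentiles of 88.1 and 92.4. By score per bp the medians were 80.4 and 74.3. At 4430335 to 4430777 the percentiles were 91.7, 73.4 and 93.6 in lead replicates 1, 2 and 3, and 87.7, 88.5 and 87.3 in control replicates 1, 2 and 3. Lead replicate 2, the shortest list, was lowest. Lead replicates 1 and 3 lay above the 3 controls by score, but by score per bp lead replicate 1 (80.5) lay below control replicate 2 (82.4). At 4431752 to 4432340 they were 91.9, 86.5 and 93.0 in lead libraries, and 93.3, 94.6 and 91.4 in control libraries. The second region lay 974 bp beyond the first, and its 6 peaks shared 430 bp. These regions kept a peak in every library when each list was reduced to its 1379 highest scores. The extra peak of control replicate 3, at 4432994 to 4433277, had a percentile of 18.6.

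nAChRalpha3, a subunit of the alpha class on X, spans 91.0 kb at 8276200 to 8367169. It had 11, 1 and 2 peaks in lead replicates 1, 2 and 3, and 2, 4 and 2 in control replicates 1, 2 and 3. Lead replicate 1 lay far above the other 5 libraries, and lead replicate 2 lowest. Of its 11 regions, 7 had a peak in lead replicate 1 alone, at percentiles of 18.6 to 64.9. Lead replicate 1 is also the library with the raised share of peaks on X, and the part of that share in these 7 regions was not tested. Among the 1379 highest scores of each list, nAChRalpha3 had 5, 1 and 1 peaks in lead libraries and 2, 2 and 2 in control libraries.

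The region at 8341474 to 8341807 of nAChRalpha3 was found in all 6 libraries. Its percentiles were 87.5, 64.7 and 80.4 in lead replicates 1, 2 and 3, and 72.0, 49.7 and 73.7 in control replicates 1, 2 and 3. Lead replicates 1 and 3 exceeded all controls and lead replicate 2 lay between them, but by score per bp lead replicate 2 (69.5) lay below all controls (77.1, 75.1 and 81.2). The peaks there were 217 to 307 bp wide and shared 217 bp, so the narrowest lay wholly inside the others. At 8326539 to 8326885 a peak was present in lead replicate 1 (percentile 85.0) and in control replicates 2 and 3 (33.0 and 66.9). At 8356321 to 8356873 it was present in lead replicate 1 and control replicates 1 and 2, and at 8366804 to 8367085, 84 bp inside the higher-coordinate end, in lead replicates 1 and 3 and control replicate 2. The single peak at 8276265 to 8276490, 65 bp inside the other end, also overlapped the neighbouring gene CG1636 and cannot be assigned to 1 of the 2 genes.

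nAChRalpha5 and nAChRalpha7 encode subunits that, with nAChRalpha6, resemble the vertebrate alpha7 subunit. nAChRalpha5 spans 54.2 kb on 2L at 14040170 to 14094401. It had 3, 1 and 3 peaks in lead replicates 1, 2 and 3, and 2, 2 and 1 in control replicates 1, 2 and 3, in 5 regions. The groups overlapped. No region had a peak in every library. The most shared, at 14079862 to 14080483, was missing only from lead replicate 3 and had percentiles of 5.55 and 20.4 in lead replicates 1 and 2 and of 29.6, 46.7 and 27.7 in the 3 control libraries. By score per bp they were 0.965 and 28.6 in lead and 32.1, 20.9 and 27.3 in control libraries, so the groups overlapped.

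At 14083208 to 14083724 of nAChRalpha5, lead replicates 1 and 3 had a peak (percentiles 11.9 and 33.0) and no control library did. Without lead replicate 2 this was the 1 member region with a peak in every lead and no control library, a class that held 4.73% of all 4504 regions under the same omission. A peak at 14061075 to 14061371 was shared by lead replicate 1 and control replicate 1, and one at 14073377 to 14073660 by lead replicate 3 and control replicate 2. Lead replicate 3 alone had a peak at 14054426 to 14054654, at a percentile of 4.57.

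nAChRalpha7, required in the giant fibre escape circuit, spans 21.4 kb on X at 19327075 to 19348447. It had 1, 0 and 1 peaks in lead replicates 1, 2 and 3, and 0, 1 and 1 in control replicates 1, 2 and 3, all in 1 region at 19331685 to 19332407. The peaks were 685 and 636 bp wide in lead replicates 1 and 3, and 717 and 239 bp in control replicates 2 and 3. Their percentiles were 83.7 and 28.2 in the lead libraries and 35.7 and 25.5 in the control libraries. By score per bp they were 21.5 and 3.47 in lead and 1.91 and 47.8 in control libraries, in another order. Each group thus had 2 of 3 libraries with a peak here. The libraries without one, lead replicate 2 and control replicate 1, had the 2 shortest lists.

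nAChRalpha1, nAChRalpha2 and nAChRbeta2 lie together on 3R within 121.2 kb, from 24393896 to 24515106, and their products are among the subunits of neonicotinoid-sensitive receptors. nAChRalpha1 (63.3 kb) had 1, 0 and 1 peaks in lead replicates 1, 2 and 3, and 0, 2 and 0 in control replicates 1, 2 and 3. All lay toward the higher-coordinate end, with the first region starting 54.7 kb into the span. The region at 24448581 to 24448883 was shared by lead replicate 1 and control replicate 2, at percentiles of 9.97 and 15.0. The others were single: 24455462 to 24455713 in lead replicate 3 (1.08) and 24456909 to 24457153 in control replicate 2 (58.9).

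nAChRalpha2 (5.72 kb, 3R at 24485428 to 24491147) had no peak in any library. nAChRbeta2 (5.88 kb, 3R at 24509228 to 24515106) had 2 peaks, both in lead replicate 3, at 24512648 to 24512868 and 24513151 to 24513410 (percentiles 37.9 and 23.0). One further region of the cluster lay between nAChRalpha2 and nAChRbeta2, outside every member window. It had a peak in lead replicate 3 at 24495830 to 24496090 and in control replicate 1 at 24495876 to 24496110. No part of the cluster was marked in more than 2 libraries.

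nAChRalpha4, also known as redeye and linked to sleep, spans 80.8 kb on 3L at 23206669 to 23287448. Despite that length it had 1 peak, in lead replicate 3 at 23276043 to 23276311 with a percentile of 23.0. That peak lay within the overlapping non-coding gene lncRNA:CR46475, so it belongs to neither gene alone. Of the 325 genes of 50 kb or more, 50 had no peak at all. nAChRbeta3, the most divergent subunit, spans 1.97 kb on 2L at 545129 to 547096 and had none.

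Genes with a peak in lead libraries only made up 2.79% of all genes, and genes with one in control libraries only 0.915%. Among the members, nAChRalpha4 and nAChRbeta2 had peaks in lead libraries only, in each case lead replicate 3, and no member had them in control libraries only. Of the 39 regions, 17 had peaks in lead libraries only, 43.6% against 30.7% of all regions, and 3 in control libraries only, 7.69% against 11.3%. All but 1 of the 17 were in a single library, 11 of them in lead replicate 1. Without lead replicate 1, 6 of 28 member regions had peaks in lead libraries only, 21.4% against 14.4% of all regions. Under that omission 9 of the 28 had peaks in control libraries only, 32.1% against 27.5% of all regions. No member gene was marked in every lead library and in none of the controls (0.0618% of all genes) or the reverse (0.00562%). No member region had a peak in every lead and no control library (0.441% of all regions) or the reverse (0.154%).

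Of all 17807 genes, 1833, 853 and 1409 had a peak in lead replicates 1, 2 and 3. For control replicates 1, 2 and 3 these counts were 1080, 1320 and 1250. Per library, peaks were found at 6, 4 and 8 members in lead replicates 1, 2 and 3, and at 4, 6 and 5 members in control replicates 1, 2 and 3. This was a mean of 6 ± 2 members in lead libraries and 5 ± 1 in control (SD, n = 3 each). Peaks at members numbered 30, 9 and 17 in lead and 11, 19 and 15 in control libraries, 18.7 ± 10.6 against 15.0 ± 4 (SD, n = 3 each). Lead libraries varied by more than the difference of 3.67 peaks, which was -2 without lead replicate 1. As a share of each list, member peaks made up 0.725% ± 0.110 in the lead group, against 0.704% ± 0.0789 in the control group (SD, n = 3 each). The 2 shares differed by less than the spread of either group.

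**Figure D3:**
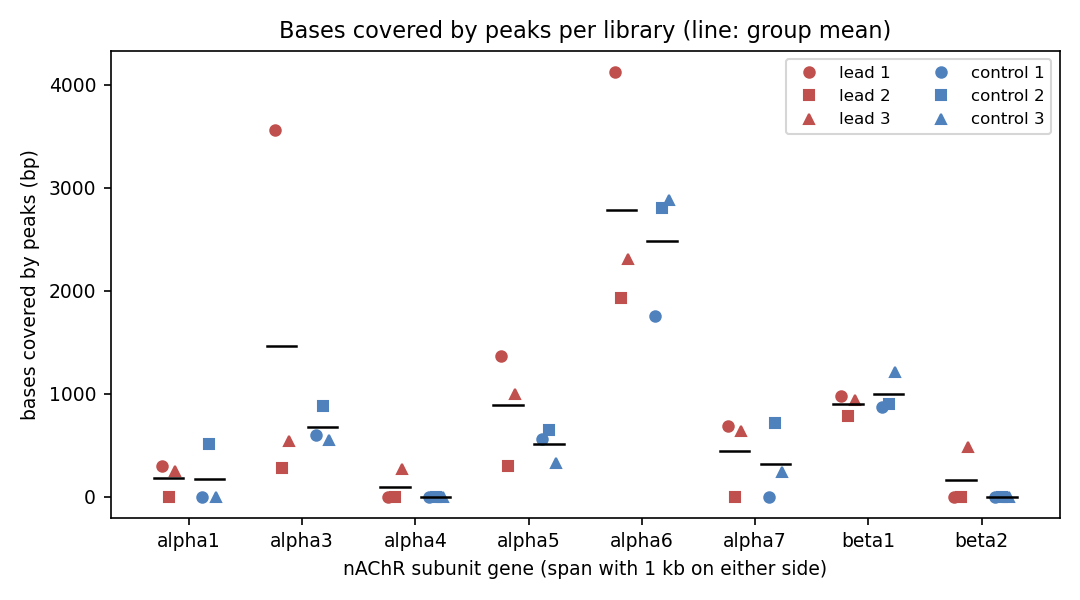
Bases covered by peaks (y axis, bp) in the window of each of the 8 subunit genes with a peak, lead libraries left and control libraries right, with symbols for replicates and lines for group means. Lead and control libraries overlap for each of the 8 genes, and lead replicate 1 lies highest at nAChRalpha3 (3562 bp) and nAChRalpha6 (4123 bp).

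Bases covered by peaks were compared gene by gene with an exact permutation test over the 20 assignments of the 6 libraries, two-sided, across the 2173 genes with a peak. With 3 libraries against 3 the smallest p is 0.1, so no gene could pass 0.05, and after Benjamini-Hochberg adjustment 0 genes (0%) did. At unadjusted p under 0.05 there were also 0. The smallest p of 0.1 was reached by 3.45% of the genes. Covered bases did not overlap between groups, lead higher, in 2.49% of these genes, and control higher in 0.966%. None of the 8 members was among them.

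nAChRalpha6 had 4123, 1926 and 2309 covered bp in lead replicates 1, 2 and 3, and 1752, 2799 and 2880 bp in control replicates 1, 2 and 3. The means were 2786 ± 1174 bp in the lead group and 2477 ± 629 bp in the control group (SD, n = 3 each), a difference of 309 bp (exact p = 0.8, adjusted p = 1). Without lead replicate 1 the difference was -359.5 bp. It was also negative, -53.5 bp, without control replicate 1, and -160.7 bp with equal numbers of peaks per list.

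nAChRalpha3 had 3562, 278 and 537 bp in lead and 595, 884 and 550 bp in control libraries. The means were 1459 ± 1826 bp in the lead group and 676 ± 181 bp in the control group (SD, n = 3 each; exact p = 1, adjusted p = 1). Lead replicates 2 and 3 both lay below every control library, and without lead replicate 1 the difference of 782.7 bp turned to -268.8 bp (exact p = 0.2).

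nAChRalpha5 had 1370, 296 and 1000 bp in lead and 563, 642 and 329 bp in control libraries, 889 ± 546 bp against 511 ± 163 bp (SD, n = 3 each; exact p = 0.4, adjusted p = 1). Lead replicates 1 and 3 exceeded all controls and lead replicate 2 lay below them. Without lead replicate 2 the difference of 377.3 bp was 673.7 bp, which gave the smallest exact p for 2 against 3 libraries, 0.1. It was 136.7 bp without lead replicate 1 (exact p = 0.8). With equal numbers of peaks per list it was -219 bp.

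nAChRbeta1 had 981, 780 and 941 bp in lead and 874, 897 and 1206 bp in control libraries, 901 ± 106 bp against 992 ± 185 bp (SD, n = 3 each; exact p = 0.6, adjusted p = 1). Relative to the mean, its spread was the smallest of the members with a peak in both groups. The difference of -91.7 bp was 15.2 bp without control replicate 3. For nAChRalpha1, nAChRalpha4, nAChRalpha7 and nAChRbeta2 the differences were 14.0, 89.7, 121.7 and 160.3 bp (exact p = 1 for each), all within the spread of the lead libraries. Without lead replicate 1 the difference was -42.7 bp at nAChRalpha1 and -0.667 bp at nAChRalpha7.

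Across the members, peaks of the regions found in all libraries stood higher in their lists than those of the other regions. The 36 peaks of the 6 regions found in all libraries had a median percentile of 87.1 (23.0 to 94.6). The other 65 peaks had a median of 23.0 (0.950 to 85.0), and those of single-library regions also a median of 23.0 (1.08 to 64.9). Scores and calls come from the same reads, so this order carries no test. In all, 40 of the 101 member peaks stood above the middle of their list, 11 of them above a percentile of 90, and the highest was 94.6. By construction, about 50% of the peaks of any list stand above its middle and about 10% above a percentile of 90.

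**Figure D4:**
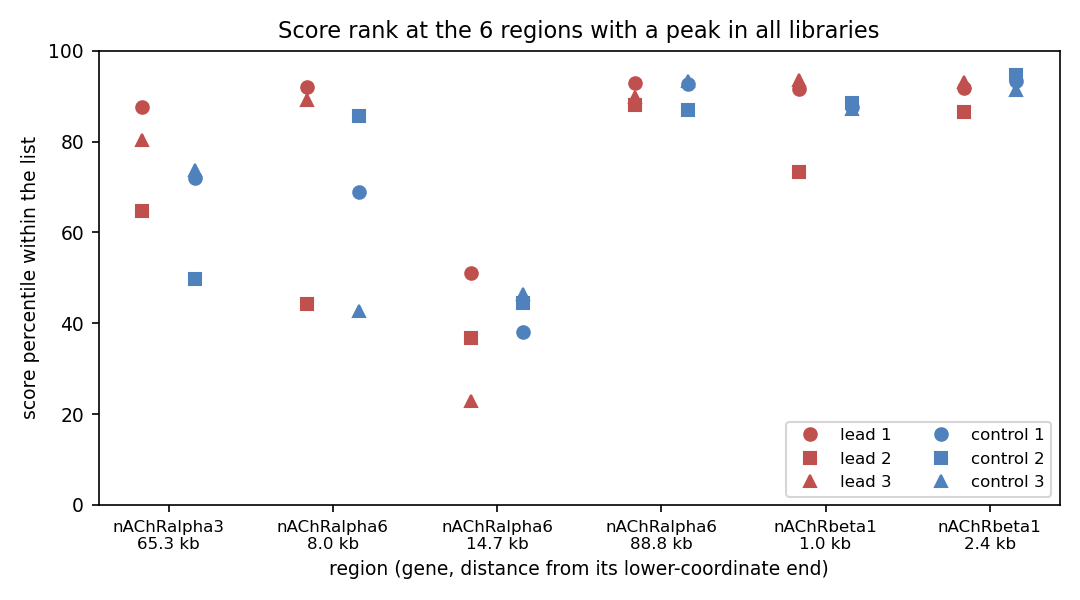
Score percentile within each list (y axis, 100 is the highest score) at the 6 member regions with a peak in all libraries, lead libraries (red) left and control libraries (blue) right, with symbols for replicates. nAChRbeta1 and the region of nAChRalpha6 near its higher-coordinate end sit mostly above 85, and lead and control values overlap at each of the 6 regions.

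Median peak width was 300 bp for member peaks, with a range of 201 to 759 bp, against 288 bp for all peaks. It was 301.5 bp for the 56 lead and 300 bp for the 45 control member peaks. Peaks of the regions found in all libraries were wider, with a median of 402.5 bp, than those of the other regions, with 280 bp. The labels give sheared fragments of a similar length to the narrow peaks, so widths carry little positional detail.

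Beside the receptor subunits, 9 other genes of acetylcholine signalling were examined, and 5 had a peak, where 12.2% of all genes and 47.0% of genes spanning 10 to 50 kb had one. ChAT, which makes acetylcholine, and VAChT, which loads it into vesicles, share their lower-coordinate end and the same 9 peaks, in 3 lead and 3 control libraries, so 2 of the 5 rest on the same peaks. These peaks were also assigned to lncRNA:CR46265. qvr, whose Ly6 protein binds channels and receptors, had 1 peak in each of the 6 libraries, all in 1 region. mAChR-B, a muscarinic receptor, had a peak in lead replicate 1 alone, and Ace, the acetylcholinesterase, in control replicate 3 alone. ChT (choline uptake), mAChR-A, mAChR-C and RIC-3 (receptor assembly) had none. ChT, mAChR-C, RIC-3 and qvr span 6.1, 1.3, 7.1 and 9.1 kb, and 6.93% of all genes under 10 kb had a peak. Among these short listed genes qvr alone had one. The other listed genes span 11.7 to 36.6 kb, and among them mAChR-A alone had no peak.

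Of 12 other channels of the Cys-loop family, to which nicotinic receptors belong, 3 had a peak, against 12.2% of all genes. These 3 span 36.3, 44.5 and 50.5 kb, and a peak was found at 47.0% of genes of 10 to 50 kb and 84.6% of those of 50 kb or more. Rdl, the GABA receptor, had 9, 4 and 6 peaks in lead and 5, 6 and 7 in control libraries, with 3 regions marked in all 6. GluClalpha, the glutamate-gated chloride channel, had 7, 1 and 5 peaks in lead and 2, 3 and 4 in control libraries. pHCl-1 was marked in 2 libraries of each group and shared a peak or peaks with lncRNA:CR44051. HisCl1, ort, Grd, Lcch3, pHCl-2, CG8916, alka, SecCl and CG6927 had none. Of these 9, all but Grd span under 10 kb. No gene of either list passed the exact permutation test after adjustment (adjusted p = 1 for each gene with a peak). None could pass, since the smallest p of that test with 3 libraries against 3 is 0.1.

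For each member with a peak in at least 2 libraries, the gene outside the family with the most similar profile was found by the mean absolute difference, over the 6 libraries, in the percentile of the best peak (0 where there was none). It was COX7AL2 for nAChRalpha1 (1.05 points), CtBP for nAChRalpha3 (4.50), Skel for nAChRalpha5 (6.23), alpha-Man-Ia for nAChRalpha7 (7.44) and dikar for nAChRbeta1 (1.49). The small value for nAChRalpha1 rests largely on libraries where both genes had no peak or a low percentile. In lead replicate 3 nAChRalpha1 alone had a peak (1.08), and in control replicate 1 COX7AL2 alone (1.49). For nAChRalpha6 it was CG1105, with Mst84B and djl tied (1.42). Each was the nearest of 2164 or 2165 genes with a peak, and such nearness over 6 values is a description only.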

How the data were processed

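MeDIP-seq libraries of genomic DNA from adult fly heads (3 lead, 3 control) were assigned to groups from their titles. The submitters' processing notes name cutadapt, Bowtie2 2.1.0 and the dm6 build. How peaks were called is not given in the sources used here. Each deposited list gives a peak's position, its width and a whole-number score of unstated meaning. The score was used to rank peaks within one list, apart from 1 alternative that applied a common limit of 47 to all lists. The authors listed peaks for each library separately, without pooling. Repeated rows were dropped. Coordinates are 1-based, since width equals end minus start plus 1 in each row.

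Gene spans came from the RefSeq table of the same assembly, which holds no strand, exons or sequence, so no sequence is shown. Regions are merged peaks over all 6 lists. The members and lists were chosen with earlier results of these data known, so counts over members carry no p-value. All 10 members, all genes of both further lists (18 matched by symbol and 3 by synonym) and 1 nearest gene per member were named. Depth per library is unknown. The replicate number as a block was an alternative. Functions were tested on simulated lists. Python 3.11.15, numpy 2.4.6, pandas 2.3.3 and matplotlib 3.10.9 were used.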

Additional observations from a re-analysis of the deposited data

How the results depend on the processing

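Of 259 alternative values, 218 kept their direction or stayed within the replicate spread or 1.5 times the count. Many of the 218 could not have changed, so this number does not measure stability. The replicate block cannot change a mean difference, and with so few libraries no setting could let a gene pass the adjusted test. The gene span alone left member values as they were, since no member region lay wholly in the 1 kb flanks. Depth is unknown and limits every absent peak.

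With equal numbers of peaks (1379 per list), lead minus control was -0.333 members, -1.67 peaks and -91.0 covered bp (1.00, 3.67 and 1763 as listed). There were 19 regions, a median width of 364 bp and 3 cholinergic genes. At 1 of the regions each control library kept a peak and the lead libraries had none. By rank it was the nAChRalpha6 region at 9813835 to 9814161, where the peak of lead replicate 1 (rank 1684) was cut. The share of such regions over the genome was not computed with equal numbers, so this count has no background. With scores of at least 47, the median, there were 13 regions (39 as listed), 3 in all libraries (6), 5 members with a peak (8), 2 in all libraries (4), 3 cholinergic genes (5) and a median width of 379.5 bp. With 5 kb on either side, 5 Cys-loop genes had a peak in place of 3. Shares over all genes and regions were not computed under any of these settings, so the counts have no background. Beyond fewer peaks or wider windows, the cause was not tested.

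When single libraries were left out, the differences lay between 0 and 2 members, -2 and 8.50 peaks and -291.8 and 3577 bp; the negative values came without lead replicate 1. Regions ranged from 28 to 39, those in every lead and no control library from 0 to 1, and the reverse from 0 to 1. Regions in lead libraries only ranged from 6 to 20 and those in a single library from 11 to 20, an alternative chosen after seeing the data; the low ends came without lead replicate 1.

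Single-gene directions also turned, always with exact p of 0.2 or more. Equal numbers gave -81.7 bp at nAChRalpha1, -219 at nAChRalpha5, -160.7 at nAChRalpha6 and 3.00 at nAChRbeta1. The score limit gave 3.00 and the 5 kb window 50 bp at nAChRbeta1. Without lead replicate 1 values were -42.7 (nAChRalpha1), -268.8 (nAChRalpha3), -359.5 (nAChRalpha6) and -0.667 (nAChRalpha7). Their highest values with a library left out were 182.7 (nAChRalpha1), 1373 (nAChRalpha3), 739 (nAChRalpha6) and 341.8 (nAChRalpha7), and the lowest for nAChRbeta1 was -150.8. Without lead replicate 3 nAChRalpha1 had -20.7. Without control replicate 1 values were -70.3 (nAChRalpha1), -53.5 (nAChRalpha6) and -37.7 (nAChRalpha7), and without control replicate 3 they were -70.3 (nAChRalpha1) and 15.2 (nAChRbeta1).

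The replicate block left the differences at 1.00 members, 3.67 peaks and 1763 bp, as it must. Its smallest possible p is 0.25, so it could make no call. The labels do not say that equal numbers pair libraries, and deviations of same-numbered libraries had correlations of 0.0114, -0.0147 and -0.00577.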
